A study of Mus musculus with 4 samples.

Results

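Histone H3 trimethylated at lysine 36 (H3K36me3) was examined over 10 genes of the Notch pathway. The chromatin came from mouse forebrain at embryonic day 13, labelled as neural progenitor cells. The genes were the receptors Notch1, Notch2 and Notch3, the ligands Dll1, Dll3 and Jag1, the nuclear effector Rbpj, the inhibitor Numb, and the target genes Hes1 and Hes5. A peak belonged to a gene when the authors' annotation gave it that gene's name and a class other than intergenic. This rule found 42 of 36820 peaks in wild-type (WT) chromatin and 63 of 95750 peaks in chromatin of the H2A.z1 conditional knockout (cKO). Dll3 and Hes5 had no such peak. The other 8 genes stand among 12573 gene names that carried one in either list.

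Both genotypes were C57BL/6 forebrain, without drug treatment in the labels. The cKO tissue carried a deletion, described by the series as brain-specific, of H2A.z1, a histone variant placed in nucleosomes near promoters. The driver of the deletion and the number of embryos per library are not given in the sources used here. Each genotype had 1 library of immunoprecipitated chromatin and 1 input library, so every difference here is between 2 libraries and has no replicate check and no p-value. The ChIP libraries held 31984670 tags (WT) and 32927164 tags (cKO). Peaks covered 13.3 Mb in WT and 69.1 Mb in cKO, a ratio of 5.18. Its part in the difference of any single gene was not tested.

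Notch signalling passes between touching cells. A Delta or Jagged ligand on one cell binds a Notch receptor on its neighbour, the receptor is cut, and its intracellular part joins RBPJ in the nucleus to switch on Hes genes, whose products repress proneural genes. In the embryonic cortex the pathway is known for keeping radial glia as progenitors while neighbouring cells that express the ligands differentiate. H3K36me3 is laid down behind elongating RNA polymerase II and lies over the bodies of transcribed genes, mostly away from their promoters, so a peak is a sign of transcription and not a level of expression.

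The labelled cell type was checked on marker genes. Of 10 radial glia markers, 8 in WT and 9 in cKO had a peak inside the gene, and of 8 neuronal markers 3 and 4 did. Over all protein-coding genes 31.3% in WT and 43.7% in cKO had one, so the neuronal counts lay near these shares. Fabp7, a radial glia marker, had no peak in either library, and Slc1a3 had none in WT. Peaks over the radial glia markers summed to 13.6 kb in WT and 31.3 kb in cKO, and those over the neuronal markers to 6.70 and 17.4 kb. The 6 endothelial and the 5 meningeal and mural markers had no peak inside the gene in either library. Of 5 microglial and 5 red blood cell markers, none had a peak inside the gene in WT and 1 of each (Csf1r and Alas2) did in cKO. The part of cell composition in the results below was not tested, and in such bulk chromatin fewer marked cells and less mark per cell cannot be told apart.

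The pathway reaches its targets through DNA sites of RBPJ, and Hes5 shows them. Its promoter window in RefSeq (GRCm38.p6, the assembly behind mm10; chr4:154960673-154960972, plus strand) runs from 250 bases before the start site to 50 after it. It is printed 5′ to 3′ with each match to the RBPJ core motif GTGGGAA, on either strand, in capitals.
Hes5: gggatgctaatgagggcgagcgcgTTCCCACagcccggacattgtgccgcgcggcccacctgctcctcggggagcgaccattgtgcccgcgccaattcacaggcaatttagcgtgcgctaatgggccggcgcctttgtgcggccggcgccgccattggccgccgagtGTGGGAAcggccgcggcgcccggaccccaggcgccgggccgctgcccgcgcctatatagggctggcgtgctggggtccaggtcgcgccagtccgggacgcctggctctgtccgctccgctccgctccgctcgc
The matches begin 226 and 83 bases before the start site. At least 1 match was found in 6.38% of 32851 RefSeq promoter windows and at least 2 in 0.256%. Of the 13 windows that RefSeq gave for 9 of the 10 genes, the Hes5 window was the only one with a match. Hes1 had no window, so its promoter was searched neither for the motif nor for a peak. A match describes letters and does not show binding. No H3K36me3 peak of either library overlapped any of the 13 windows, and over all windows 0.338% were overlapped in WT and 1.26% in cKO.

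By the authors' peak names, 6 of the 10 genes had a peak in WT and 8 in cKO. Notch1, Notch3, Dll1, Jag1, Rbpj and Numb had peaks in both, Notch2 and Hes1 in cKO alone, and Dll3 and Hes5 in neither. Among all 21883 protein-coding genes of RefSeq, 27.9% were named by a WT peak and 39.1% by a cKO peak. The names did not always match the position, however. The 15 WT peaks inside the Notch2 gene were all named Adam30, although the authors' own class placed every one of them in an exon or intron of the transcript that also carried the Notch2-named peaks of cKO. Of the peaks inside the 10 genes, 28 of 69 in WT (40.6%) and 58 of 120 in cKO (48.3%) carried another name. Over all peaks inside protein-coding genes the name was not that of an overlapping gene in 32.8% of WT and 32.8% of cKO peaks. Symbols were compared as written, so a gene listed under an older symbol counts as another name here.

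Each gene was therefore also measured by position, as the share of its RefSeq span inside peaks of any name. By position, 8 of the 10 genes had a peak in WT and 9 in cKO, beside 31.3% and 43.7% of all protein-coding genes. Dll3 alone had none in either library, and Hes1 had one in cKO alone. The share of the span inside peaks was higher in cKO in each of the 9 genes with a peak, by 4.65 percentage points (Rbpj) to 42.2 points (Notch3).

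**Figure D1:**
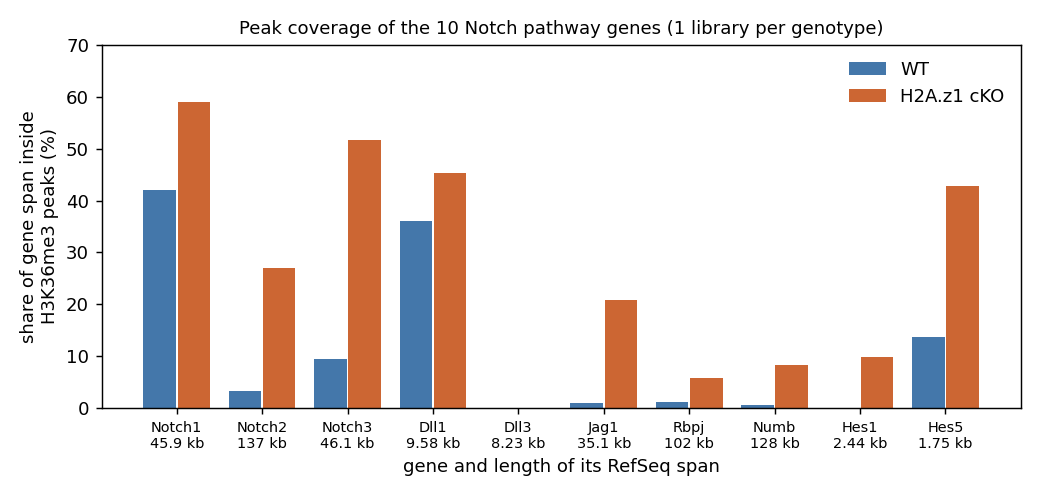
Bars show the share of each gene's RefSeq span (%) inside H3K36me3 peaks of any name in the WT and the cKO library, with the span length under each name. There is 1 library per genotype and hence no error bar. Notch1 and Dll1 are the most covered genes in WT, with 42.0% and 36.03%, and Dll3 has no peak.

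Notch1, the main receptor of cortical progenitors, was the most heavily marked of the 10 genes in WT. Its span (chromosome 2, 26457902 to 26503822, minus strand, 45.9 kb) held 23 WT peaks that covered 42.0% of it, and 11 cKO peaks that covered 59.02%. With 19.3 kb inside peaks, Notch1 ranked 21 among all protein-coding genes in WT, and with 27.1 kb it ranked 287 in cKO. The number of peaks was thus lower in cKO while the covered length was higher by a ratio of 1.41, since single cKO peaks spanned several WT peaks. The widest cKO peak measured 7931 bp, lay 21.3 to 29.2 kb from the 5′ end of the span and overlapped 6 WT peaks. Another of 5346 bp overlapped 4. The widest WT peak measured 3161 bp and ranked 32 by width among the 36820 WT peaks.

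Of the bases inside Notch1 that lay in WT peaks, 97.4% also lay in cKO peaks. The cKO peaks added 8309 bp and left out 493 bp. The signal was not spread evenly over the gene. When the span was divided into 5 equal bins from 5′ to 3′, bin 2 was covered to 0.0109% in WT and held nothing in cKO, and bin 1 was covered to 14.6% in WT and 17.5% in cKO. Bins 3, 4 and 5 were covered to 68.3, 62.2 and 64.9% in WT and to 94.0, 95.5 and 88.2% in cKO. The peak with the largest -log10 q had a pileup of 37 tags and a fold enrichment over input of 8.79 in WT, and a pileup of 72 and a fold of 13.7 in cKO. These scores are the authors' and depend on the tags and input of each library, so they serve only to place a peak within its own list. There the Notch1 peak ranked 356 of 36820 in WT and 145 of 95750 in cKO.

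Notch3, a receptor of progenitors and of vascular mural cells, had a much wider gap between the libraries. Its span (chromosome 17, 32120820 to 32166896, minus strand, 46.1 kb) held 15 WT peaks over 9.47% and 24 cKO peaks over 51.7%, a ratio of 5.46. The 15 WT peaks were narrow, with a median width of 244 bp and none above 826 bp. All 15 were overlapped by a cKO peak, as were 96.5% of all genic WT peaks (class not intergenic). The widest cKO peak measured 3694 bp. In cKO bins 2, 3 and 4 were covered to 59.4, 74.8 and 72.2%, and in WT to 12.03, 16.3 and 9.05%. Notch1 and Notch3 thus differ little in length and in cKO coverage, but in WT the covered length was 19.3 kb in Notch1 and 4.36 kb in Notch3. Of the Notch3 peaks, 7 in WT and 13 in cKO, all toward the 3′ end, carried the name Gm17276.

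Notch2, the third receptor, is the longest of the 10 genes (chromosome 3, 98013538 to 98150367, plus strand, 137 kb). It held 15 WT peaks over 3.38% of the span and 42 cKO peaks over 27.0%, from 4.62 to 36.9 kb, a ratio of 7.99. All 15 WT peaks were overlapped by cKO peaks, beside 96.5% of all genic WT peaks. Every WT base inside peaks was also inside a cKO peak. The WT peaks started 85.9 kb from the 5′ end, in exon 7 of 34 by the authors' annotation, and the cKO peaks started 36.6 kb from it, in intron 2 of 33. The 9 cKO peaks that did carry the name Notch2 lay 36.6 to 69.7 kb from the 5′ end, in introns 2 to 5. Counted by name, Notch2 had no peak in WT and 4.24 kb in cKO. Counted by position, its 3′ part was marked in both. One narrow WT peak in intron 23 of 33 (538 bp) was the strongest WT peak of all 10 genes, with a pileup of 42 tags, a fold of 11.9 and a rank of 112 in the list. A cKO peak of 1252 bp with a pileup of 96 and a fold of 6.42 covered it.

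**Figure D2:**
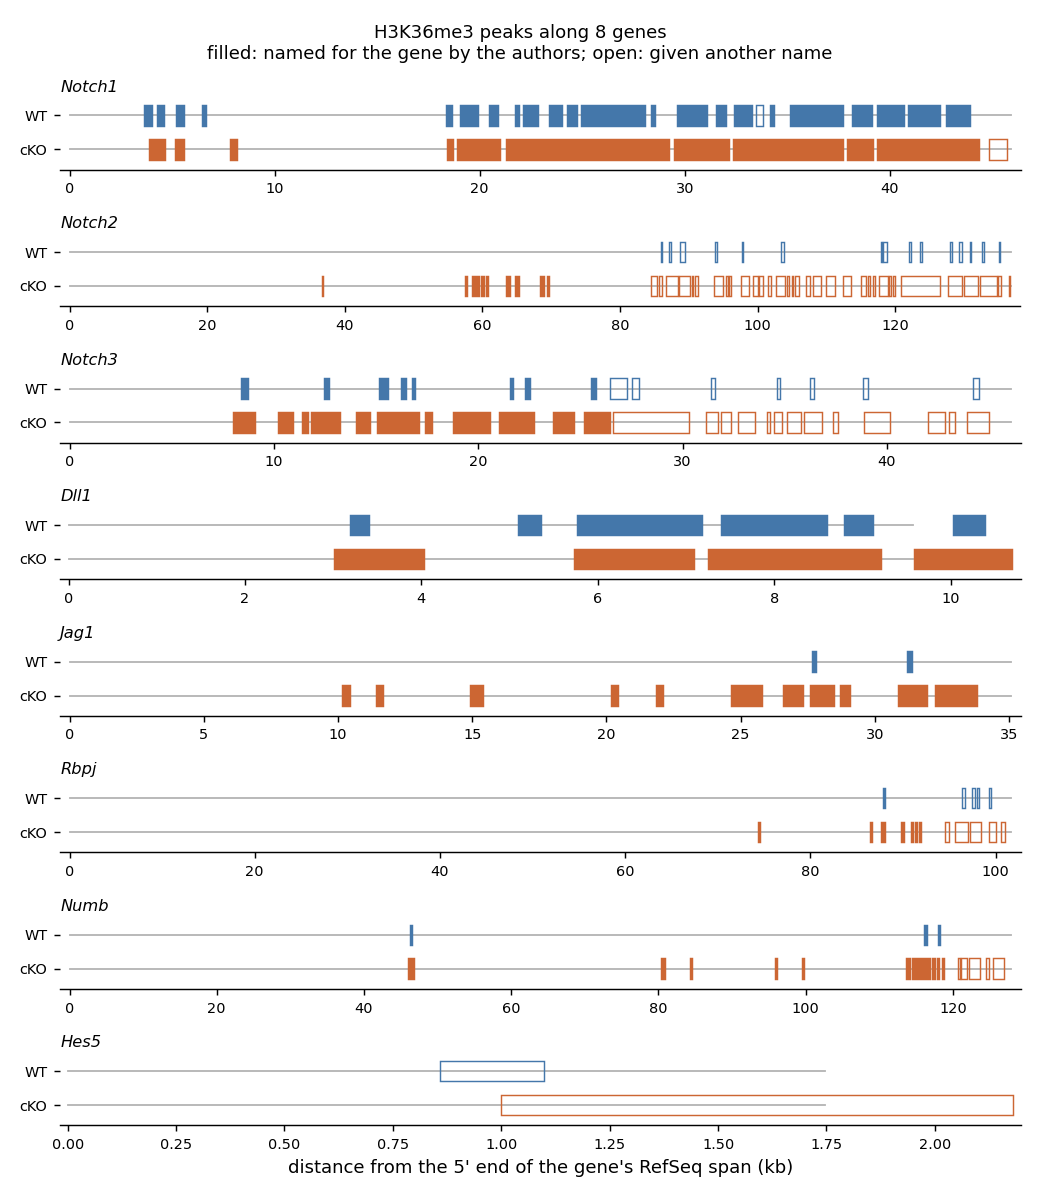
Boxes show the H3K36me3 peaks of WT and cKO along 8 genes, placed by distance (kb) from the 5′ end of the RefSeq span, which is drawn as a grey line. Filled boxes carry the gene's name in the authors' annotation and open boxes carry another name. In Notch1 single cKO peaks bridge several WT peaks, and in Notch2 all 15 WT peaks are open boxes.

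Among the ligands, Dll1 was marked in both libraries with a small difference in extent. Dll1, the Delta ligand of cells leaving the progenitor state (chromosome 17, 15367354 to 15376932, minus strand, 9.58 kb), had 36.03% of its span inside 5 WT peaks and 45.4% inside 3 cKO peaks. A further peak of each library carried its name and lay past the 3′ end. The ratio of covered length inside the gene was 1.26, the lowest of the 8 genes with peaks in both. Bins 4 and 5 were the most covered, with 88.4 and 66.5% in WT and 91.8 and 81.04% in cKO. Bin 2 was covered to 11.6% in WT and 42.7% in cKO, and bin 1 had no peak in either. The authors' class follows whichever transcript the annotation chose. The Dll1 peak of 1970 bp classed as promoter in cKO began 7.25 kb from the 5′ end of the gene, and its class refers to another transcript than that of the intron peak.

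Jag1, a Jagged ligand of progenitors and vessels (chromosome 2, 137081451 to 137116520, minus strand, 35.1 kb), had the largest ratio of the 10 genes. It had 2 WT peaks of 209 and 152 bp that covered 1.03% of the span, and 11 cKO peaks that covered 20.8%, from 0.361 to 7.31 kb, a ratio of 20.2. This ratio rests on 2 short WT peaks. Both were overlapped by a cKO peak, as were 96.5% of all genic WT peaks. Of the 11 cKO peaks 9 had no WT partner, and over all genic cKO peaks only 25.6% had one. The WT peaks lay 27.7 and 31.2 kb from the 5′ end, and the cKO peaks began at 10.1 kb. Bins 4 and 5 held 42.1 and 57.9% of the covered bases in WT and 35.8 and 46.6% in cKO.

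Dll3, a ligand that acts inside the cell as an inhibitor of the pathway (chromosome 7, 28293555 to 28301785, minus strand, 8.23 kb), had no peak in either library. The nearest peak lay 4604 bp away in WT and 3111 bp away in cKO and was named Timm50. Within 20 kb of Dll3 lay 11 WT and 6 cKO peaks.

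Rbpj and Numb, long genes that act inside the cell, were sparsely marked. Rbpj, the DNA-binding partner of cut Notch receptors (chromosome 5, 53555779 to 53657445, plus strand, 102 kb), had 5 WT peaks over 1.21% and 12 cKO peaks over 5.86%, a ratio of 4.83. All 5 WT peaks lay in bin 5, at least 87.9 kb from the 5′ end, and bin 5 held 96.9% of the cKO peak bases. The RefSeq promoter windows of Rbpj begin at 53590096 and 53590236, inside the span. The shares and distances given for Rbpj thus also count bases upstream of those start sites. By name the gene had only 1 WT peak of 152 bp and 7 cKO peaks, a ratio of 12.2, since 4 WT and 5 cKO peaks inside its 3′ end were named Cckar. Numb, which antagonises Notch in one daughter of a dividing cell (chromosome 12, 83794034 to 83921942, minus strand, 128 kb), had 3 WT peaks over 0.621% and 15 cKO peaks over 8.29%, a ratio of 13.4. A WT peak of 227 bp in an intron 46.3 kb from the 5′ end had a cKO partner of 773 bp, and bin 5 held 80.3% of the cKO peak bases. Rbpj and Numb had the lowest cKO coverage of the 7 marked genes of at least 5 kb.

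The Hes genes, which encode the repressors at the end of the pathway, were short and held at most 1 peak per library. Hes1 (chromosome 16, 30065357 to 30067796, 2.44 kb) had no WT peak, and the nearest WT peak was 269646 bp away. In cKO it had 1 peak of 239 bp with a pileup of 28 tags and a fold of 6.81, classed as termination site, which covered 9.80% of the gene. Hes5 (chromosome 4, 154960626 to 154962372, plus strand, 1.75 kb) had 1 peak in each library, both named Gm20421 and classed as promoter of that transcript. The WT peak of 240 bp began 0.859 kb from the 5′ end of the span and covered 13.7% of the gene. The cKO peak of 1182 bp began at 0.999 kb, ran past the 3′ end with 748 bp inside the gene, and covered 42.8%. Only 41.7% of the WT peak bases of Hes5 lay inside the cKO peak. In genes of this length 1 peak more or less changes the whole value, and the presence of Hes5 peaks in cKO was lost with a fold enrichment of at least 4.

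With a ratio of covered length of at least 2 as the call, 6 of the 8 genes named by a peak were higher in cKO, Notch2 and Hes1 with no WT peak among them. Of all 12573 gene names 90.8% were higher by this rule and 3.15% were at least 2-fold lower. None of the 10 genes was lower. Of the 6 genes named in both libraries, 4 were higher, beside 89.9% of all such names. By position 7 of 9 were higher, beside 92.2% of 9671 genes with a peak, and none was lower, beside 1.18%. Of the 8 genes with a peak inside in both libraries, 6 were higher by position, beside 90.5%. The median ratio over the genes with a peak in both was 6.90 by name (6 genes) and 5.14 by position (8 genes). Over all genes with a peak in both it was 5.48 (8054 names, quartiles 3.22 and 9.53) and 5.54 (6753 genes, quartiles 3.25 and 9.69). The shares of Notch genes called rest on 8 genes by name and 9 by position, too few to set them apart from the shares over all genes. Their median ratios lay inside the quartiles over all genes. The genes not called were the same by name and by position, Notch1 with 1.39 and 1.41 and Dll1 with 1.43 and 1.26. By position the largest possible ratio falls as WT coverage rises, since the span is fixed. In percentage points of the span Notch1 rose by 17.0 and Dll1 by 9.35. Over the 9 genes with a peak, Notch1 and Dll1 included, the rises ran from 4.65 to 42.2 points.

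**Figure D3:**
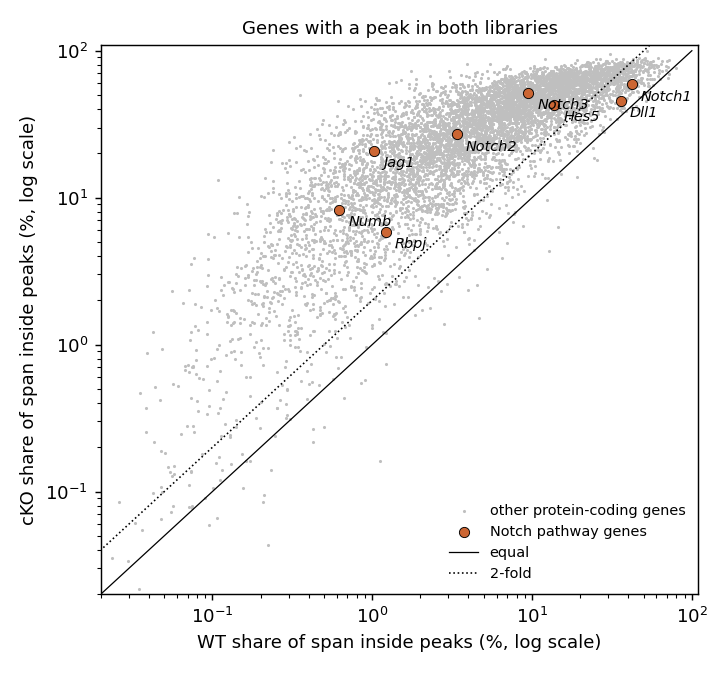
Each point is a protein-coding gene with a peak in both libraries, placed by the share of its RefSeq span (%) inside peaks in WT and in cKO on log axes. Large points are the 8 Notch pathway genes with peaks in both, the solid line marks equal shares and the dotted line a ratio of 2. Notch1 and Dll1 lie between the lines, and of the 8 genes Jag1 lies furthest above the dotted line.

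Notch1 and Dll1 were also the 2 genes with the largest WT coverage. Of 252 genes of at least 5 kb with a WT coverage of 30 to 50%, 40.1% had a ratio of at least 2, and the median was 1.92 (quartiles 1.64 and 2.13). The ratio was below that of Notch1 in 19 of these genes and below that of Dll1 in 6. Among the 3486 genes with a WT coverage of up to 5%, the band that holds Jag1, Notch2, Rbpj and Numb, the median ratio was 9.17 (quartiles 5.81 and 15.0). Notch2 and Numb lay inside these quartiles, Jag1 above and Rbpj below.

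Nearly all WT peaks of the genes had a cKO partner. By name, 40 of 42 WT peaks (95.2%, exact Clopper-Pearson 95% interval 83.8 to 99.4%, counting error only) were overlapped by a cKO peak, beside 96.5% of all genic WT peaks. In the other direction 24 of 63 cKO peaks were overlapped (38.1%, interval 26.1 to 51.2%), beside 25.6% of all genic cKO peaks. This share differed between genes. With peaks of any name inside the genes added, 46 of 121 cKO peaks were overlapped. Notch1 had 9 of 11 and Dll1 4 of 4, while Notch2 had 12 of 42 and Jag1 2 of 11. Peaks of 1 gene are not independent, so the intervals are too narrow. The 2 WT peaks without a partner were a peak of 186 bp in Notch1 and one of 261 bp in Dll1. Fewer peaks in cKO than in WT were found in 2 of the 6 genes named in both, Notch1 (22 and 10) and Dll1 (6 and 4), beside 15.7% of all such names. Peaks named for the 10 genes had a median width of 354 bp in WT and 590 bp in cKO, beside 271 and 436 bp over the lists. The narrowest of them measured 152 bp in WT and 185 bp in cKO. These were also the fragment lengths that the file headers give for the libraries. The part of this difference in peak widths and covered lengths was not tested.

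Along the gene, the peaks leaned toward the 3′ end in both genotypes. Over the 7 marked genes of at least 5 kb, bin 5 held on average 52.3% of the covered bases in WT and 50.7% in cKO, and bin 1 held 2.11% and 1.47%. Over all genes of that length with a peak and a known strand, bin 5 held 39.9% (5208 genes) and 39.4% (7145 genes), and bin 1 held 5.27% and 6.23%. The 7 genes differed among themselves. Rbpj had 100% of its WT peak bases in bin 5, Numb 71.4%, Notch1 30.9% and Notch3 13.2%. By the authors' class, introns held 18 of the 42 WT peaks and 40 of the 63 cKO peaks (42.9% and 63.5%), beside 50.9% and 64.0% of all genic peaks.

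**Figure D4:**
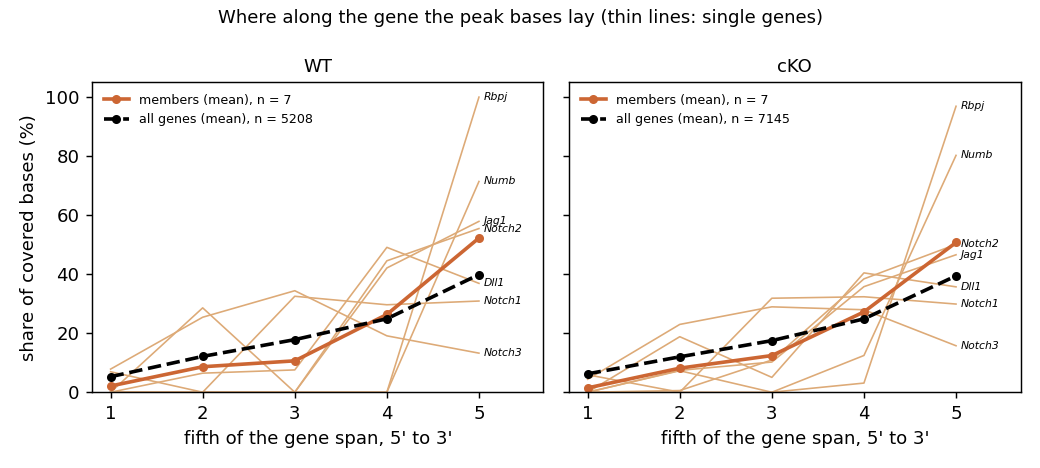
Lines give the share of a gene's covered bases (%) in each of 5 equal bins of its span from 5′ to 3′, in WT and cKO. Thin lines are the 7 marked genes of at least 5 kb, the thick line is their mean, and the dashed line is the mean over all such genes. The mean of the 7 genes in bin 5 is 52.3% in WT and 50.7% in cKO, and the all-gene mean is 39.9% and 39.4%.

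The wider pathway was read from 59 further genes, by position. Of these, 38 had a peak in WT and 41 in cKO, beside 31.3% and 43.7% of all protein-coding genes, and 17 had none in either. In cKO 37 were at least 2-fold higher and 1 was lower, beside 92.2% and 1.18% of all genes with a peak. The median ratio over the 37 genes with a peak in both was 4.92, beside 5.54 over all such genes. The processing genes cut, glycosylate or ubiquitinate receptors and ligands, and 13 of 19 had a WT peak and 15 a cKO peak. Poglut1, which adds O-glucose to Notch, had the largest cKO covered length of this group, with 2191 bp (8.69% of the gene) in WT and 17221 bp (68.3%) in cKO. Pofut1, which adds O-fucose, had the largest ratio, 29.0, with 305 bp in WT and 8833 bp in cKO. Of the 17 nuclear cofactors, 15 had a WT peak and 16 a cKO peak. Cir1, a corepressor that acts with RBPJ, had the largest ratio of the cofactors, 8.94, with 299 bp in WT and 2672 bp in cKO. This ratio rests on 1 WT peak.

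Of the 10 genes for inhibitors and turnover, 7 had a peak in both. Itch, a ubiquitin ligase, had 6184 bp in WT and 35466 bp in cKO, and Dtx2, a Deltex ubiquitin ligase, had 185 and 12060 bp, a ratio of 65.2 that rests on 1 WT peak. Of the 6 other receptors and ligands, 1 had a peak in each library. Notch4, Dll4, Dlk1 and Dlk2 had no peak, Jag2 had 2 cKO peaks over 2.76%, and Dner had 1 WT peak of 164 bp inside the gene and none in cKO. Of the 8 other target genes, 2 had a peak in each library, few genes to set beside the 31.3% and 43.7% over all genes. Hes3, Hes6, Hes7, Hey2, Heyl and Nrarp had no peak inside the gene, Hey1 had 5.35 and 7.39% of its span covered, and Id4 had 3.75 and 9.38%. Id4 was named by a WT peak of 407 bp, which lay outside the gene, and by no cKO peak. The WT peak inside Id4 carried another name, and the cKO peak inside it carried the name A330033J07Rik. Of the target genes, Hes1 and Hes5 included, only Hes5 had more than 9.80% of its span covered in either library.

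**Figure D5:**
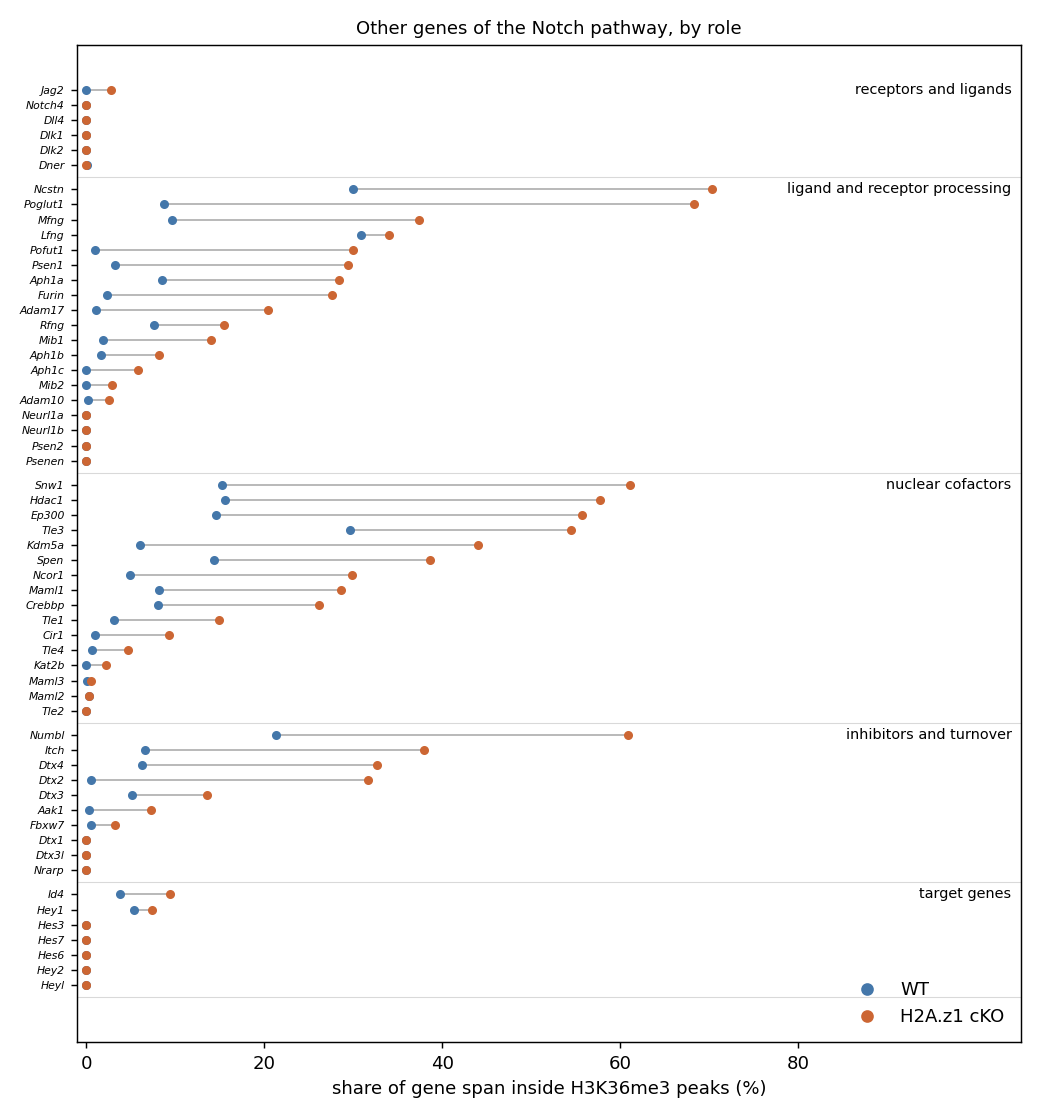
Points give the share of the RefSeq span (%) inside peaks in WT and cKO for other genes of the pathway, grouped by role and joined by a line per gene. Nuclear cofactors and processing genes reach up to 70.4% in cKO (Ncstn), and all target genes stay at or below 9.38%.

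The values depend on how much of the cKO list is used. When it was reduced from its strongest peaks to the covered length of the WT list, Notch1 and Dll1 alone kept a named cKO peak, and 0 of the 10 genes were at least 2-fold higher by name. Notch1 then had 18929 bp in WT and 24335 bp in cKO by name, and Dll1 had 3822 and 1970 bp. By position Notch2 had 4621 and 10697 bp and was still at least 2-fold higher. Shares over all genes are not given for the reduced list, so these counts cannot be read as particular to the 10 genes.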

How the data were processed

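Per the labels' protocols, chromatin of embryonic day 13 progenitors was fixed with formaldehyde and precipitated with an H3K36me3 antibody. Per the submitters' processing notes, the alignment tool was Bowtie2 2.2.9 and the genome build mm10. Per the file headers, the authors called narrow peaks for each library against input with MACS 2.1.1.20160309 at a p cutoff of 1.00e-05. The deposited lists give positions, the pileup signal at the summit in tags, the fold enrichment over input, and -log10 p- and q-values. A second deposited table gives each peak a class and a gene name, made with a tool that the sources used here do not name. The peak lists were joined to it by chromosome, start minus 1 and end, and every peak matched.

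Covered length was the sum of merged peak bases, by name (class not intergenic) or by overlap with RefSeq protein-coding spans (GRCm38.p6, 21883 genes, all 10 genes matched). Strand came from the RefSeq promoter table (9 of 10). A gene was called at a ratio of at least 2. Tag numbers were similar, but coverage grows with enrichment as well as with tags. No test between genotypes was made. Shares carry Clopper-Pearson intervals. Functions were tested on simulated data. Python 3.11.15, pandas 2.3.3 and scipy 1.17.1 were used. Alternatives were stricter peaks (-log10 q of at least 5, fold of at least 4), a shorter cKO list, peaks within 3 kb joined, position in place of name, and reciprocal overlap.

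The genes, the wider pathway list and the marker lists were chosen with earlier results of these data known. Named were all 10 genes and, per role of the wider list, the largest cKO covered length, the largest ratio and any gene lost or lower in cKO. One gene that this rule names is not reported here. Other genes were named after their values were seen.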

Additional observations from a re-analysis of the deposited data

How the results depend on the processing

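No paired analysis was possible because each genotype had 1 ChIP library and no test was run. With a -log10 q of at least 5 the median ratio by name was 11.7. It was taken over 5 genes in place of 6, since Rbpj lost its only named WT peak. With peaks of a gene within 3 kb joined the median ratio was 3.11. With as many cKO peaks as WT peaks, the strongest kept, the median ratio was 3.45 and 73.8% of WT peaks were overlapped. With the cKO list shortened to the WT covered length, 2 genes had a named cKO peak, 0 were at least 2-fold higher by name, the median ratio was 0.901 and 45.2% of WT peaks were overlapped. By position Notch2 remained at least 2-fold higher there, with 4621 and 10697 bp. With the full cKO list and a reciprocal overlap of 50%, 16.7% of WT peaks were overlapped, beside 15.4% of all genic WT peaks. Differences in covered length, cKO minus WT, turned negative in these cases. At the WT number of peaks they were -489 bp by name and -118 bp by position for Dll1, and -240 bp for Hes5. At the WT covered length they were, by name and by position, -2019 and -670 bp for Notch3, -1852 and -1481 bp for Dll1, -361 bp in both for Jag1, -152 and -1234 bp for Rbpj and -794 bp in both for Numb, and by position -240 bp for Hes5. Hes5 had -240 bp with a fold of at least 4 and -140 bp with joined peaks. For Notch3 (by name), Jag1, Rbpj, Numb and Hes5 at the WT covered length, and for Hes5 at the WT number of peaks and with a fold of at least 4, no cKO peak was left. By position in place of name, the 3 counts and the median ratio stayed within 1.5 times of their value by name.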

Other observations

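The names of the deposited annotation placed whole groups of peaks on genes that did not hold them. All 5 WT and 39 cKO peaks named Dner lay outside the RefSeq span of Dner, which encodes a Notch-binding protein of neurons. By name Dner had 918 bp in WT and 16909 bp in cKO, and by position 164 bp and none. Of the peaks named Lfng, which encodes a glycosyltransferase of Notch, 5 of 6 in WT and 2 of 4 in cKO lay outside the gene. By name Lfng had 5982 bp in WT and 15771 bp in cKO, and by position 2535 and 2794 bp. The reverse was seen for Ep300, a histone acetyltransferase recruited by the Notch complex, which no peak named in either library although 24 WT and 31 cKO peaks lay inside it, over 14.5 and 55.7% of its span. Over all protein-coding genes with a peak inside, 22.7% in WT and 19.5% in cKO were named by no peak, with symbols compared as written.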
